A study of Mus musculus with 3 samples.

Results

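The 7 genes described here are Hbb-y, Hba-x and Hbb-bh1, which encode embryonic globins, and Alas2, Klf1, Epb42 and Rhag, which serve heme synthesis, gene regulation and the membrane of red cells. They were taken by name from 19938 genes with a probe set of their own, and all 7 were measured, each by 1 probe set. The 3 samples are described as ureteric duct cells from mouse embryos of the CD-1 strain at 10.5 days post coitum (Theiler stage 18). Whether red cells were among them was not tested. Every embryo carried the transgene Tg(Hoxb7-EGFP)33Cos, in which Hoxb7 sequences drive green fluorescent protein in the nephric duct and its derivatives. The duct was microdissected, dissociated with trypsin and sorted for fluorescence. Each sample was 1 duct, not pooled, whose RNA was amplified in 1 round and hybridised to 1 array. The samples form 1 group with no second condition. Nothing in the labels says whether they came from separate embryos or litters. The spread between arrays may hold differences between ducts and technical ones, which cannot be told apart.

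The red cells of a midgestation mouse embryo are mostly primitive erythroid cells, which arise in the yolk sac, circulate while still nucleated, and make embryonic hemoglobins. In these, the alpha-type chain from Hba-x (zeta globin) pairs with the beta-type chains from Hbb-y (epsilon-y globin) and Hbb-bh1 (beta-h1 globin). Each chain carries a heme, whose first synthetic step in red cells is catalysed by Alas2, and globin and heme genes are activated together by Gata1 and Klf1. Globin transcripts are among the most abundant in red cells and are commonly used as a sign of blood in embryonic tissue.

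Gata1 binds a GATA core and Klf1 a CACCC box, and the promoters printed here place these letters in genes that differed between arrays (the first pair) and in genes that did not (the second pair). The RefSeq table (GRCm38.p6) held a promoter for 6 of the 7 genes. The stretches are the 150 bases before the start of transcription, with GATAA and CACCC on either strand (TTATC and GGGTG on the other) in capitals.
Hbb-y: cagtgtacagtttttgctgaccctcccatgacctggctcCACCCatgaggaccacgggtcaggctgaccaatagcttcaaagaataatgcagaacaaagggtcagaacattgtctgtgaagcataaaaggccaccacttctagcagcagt
Hba-x: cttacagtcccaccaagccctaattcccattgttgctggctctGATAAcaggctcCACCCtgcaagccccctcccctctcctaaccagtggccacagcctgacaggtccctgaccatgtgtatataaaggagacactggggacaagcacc
Alas2: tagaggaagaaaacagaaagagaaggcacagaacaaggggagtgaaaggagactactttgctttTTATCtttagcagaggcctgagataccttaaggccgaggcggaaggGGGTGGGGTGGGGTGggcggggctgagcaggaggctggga
Klf1: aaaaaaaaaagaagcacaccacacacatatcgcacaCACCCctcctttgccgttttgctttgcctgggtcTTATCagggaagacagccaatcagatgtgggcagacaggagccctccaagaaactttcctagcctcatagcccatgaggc
The Hbb-y stretch is chr7:103853208-103853357 on the minus strand. The others lie on the plus strand, Hba-x at chr11:32276450-32276599, Alas2 at chrX:150547267-150547416 and Klf1 at chr8:84901832-84901981. Over the 250 bases before the start, GATAA occurred in 6 of the 6 promoters, against 22.6% of all 32851 promoters of the same length. In Hbb-y it lies upstream of the printed stretch. CACCC occurred in 5 of the 6, all but Epb42, against 52% of all promoters. The longest run of letters common to the Hbb-y and Hba-x windows was GGCTCCACCC, which overlaps the CACCC box and begins 116 bases before the start of Hbb-y and 100 bases before that of Hba-x. This run was found by comparing these promoters; it was in none of the other 4 and in 0.651% of all promoters. A match of letters is not a measured binding site. Over the 250 bases all 4 genes printed here held both boxes, the globins and the tied genes alike.

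The embryonic globins were high on array 1 and low on arrays 2 and 3, while the other 4 genes held a single value on all arrays. Values are log2 signals of the probe sets. Each gene is set against a background cutoff, which came to 5.70, 5.73 and 5.71 in array order. The cutoff is the 95th percentile of 1210 probe sets for olfactory and vomeronasal receptors, genes of sensory neurons. The genes were chosen with their values on all 3 arrays in view, so these are descriptions with no test. Array 1 is also a single sample set against 2 of its own group.

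Hbb-y, an embryonic beta-type chain of primitive red cells, had a signal of 10.02 on array 1 but of 5.31 and 5.45 on arrays 2 and 3. Array 1 lay 4.33 above its cutoff, and the other arrays lay below theirs by 0.42 and 0.26 log2 units. The excess of array 1 over the mean of arrays 2 and 3 was 4.65 log2 units, a 25.1-fold ratio of signals, while arrays 2 and 3 differed from each other by 0.14. The excess was 33.6 times that gap.

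Hba-x, the embryonic alpha-type chain, had a signal of 8.89 on array 1, of 5.97 on array 2 and of 5.84 on array 3. Its excess on array 1 was 2.98 log2 units, a 7.90-fold ratio, with a gap of 0.12 between arrays 2 and 3. On arrays 2 and 3 the Hba-x probe set lay above the cutoff, by 0.23 and 0.14, where those of the beta-type genes lay below it. These readings were close to the medians of all probe sets, 5.90 on array 2 and 5.86 on array 3. Probe sets differ in affinity, so whether Hba-x transcript was present there was not tested.

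Hbb-bh1, the other embryonic beta-type chain, had a signal of 6.41 on array 1, of 4.40 on array 2 and of 4.33 on array 3. Its excess was 2.05 log2 units, a 4.14-fold ratio, with a gap of 0.07 between arrays 2 and 3. Array 1 was 0.72 above its cutoff, and the other arrays were 1.34 and 1.38 below theirs. The value on array 2 was shared to the last deposited digit with 92 other probe sets, and the other globin readings above were shared with 0 probe sets. For all 3 globins array 1 lay above both arrays 2 and 3, as it did for 2166 of all 19938 genes. Mean signals over the arrays were 6.93 ± 2.68 for Hbb-y, 6.90 ± 1.72 for Hba-x and 5.05 ± 1.18 for Hbb-bh1 (SD, n = 3), spreads set almost wholly by array 1. In such bulk samples, fewer cells of a type and less RNA per cell cannot be told apart. Signals of different probe sets do not rank the transcripts, since probe sets differ in affinity.

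**Figure D1:**
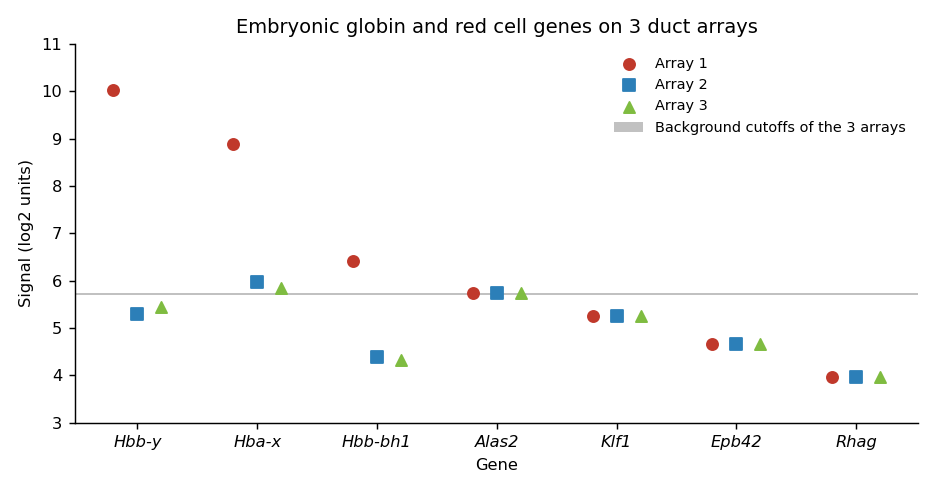
Log2 signal (vertical axis) of each of the 7 genes on arrays 1, 2 and 3 (red circles, blue squares and green triangles), with the background cutoffs of the 3 arrays as a grey band at 5.70 to 5.73. The 3 globin genes are higher on array 1, and the other 4 genes have coinciding points.

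Alas2, the red cell form of the first enzyme of heme synthesis, read 5.74 on every array, above the cutoffs by only 0.01 to 0.05 log2 units. Klf1, the zinc finger factor that activates beta-type globin genes, read 5.26 on every array, 0.43 to 0.47 below the cutoffs. Both values lay under the array 1 cutoff or within 0.05 above it, where Hbb-y lay 4.33 above it.

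Epb42, or protein 4.2, which ties the anion exchanger of the red cell membrane to its skeleton, read 4.67 on every array, 1.03 to 1.06 below the cutoffs. Rhag, the Rh-associated membrane channel protein, read 3.97 on every array, 1.73 to 1.76 below them. None of these 4 genes therefore differed between the arrays by any amount in the deposited values.

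Ties of this kind are common in the table, since 50.8% of all genes held 1 value on the 3 arrays. The value of Alas2 was also held by 110, 112 and 106 other probe sets on arrays 1, 2 and 3, and that of Klf1 by 131, 129 and 139. The value of Epb42 was held by 116, 143 and 122 others and that of Rhag by 8, 9 and 6. Between 49.9% and 51.3% of all probe sets on an array shared their value with another. No spread can be given for a tied gene. A difference between arrays in these 4 genes was not recorded, which does not show that their transcripts were equal.

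Measured over all genes, an excess of array 1 over both other arrays by more than 1 log2 unit was found for 58 genes (0.291%), and 3 of the 7 genes were among them. This contrast chose the genes, so the share is given as the setting only. By size of excess Hbb-y ranked 1, Hba-x 2 and Hbb-bh1 9 of 19938, with excesses of 4.58, 2.92 and 2.02 over the higher of arrays 2 and 3. Only 9 genes had an excess over 2 log2 units, and 3 of them were these globins. The other arrays also had genes that stood apart, 42 (0.211%) on array 2 and 91 (0.456%) on array 3. Their largest excesses were 4.66 for Atxn1 on array 2 and 3.37 for Catsperz on array 3, named after their values were seen. The array 1 count depends on having both other arrays: it was 220 (1.1%) without array 2 and 134 (0.672%) without array 3.

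**Figure D2:**
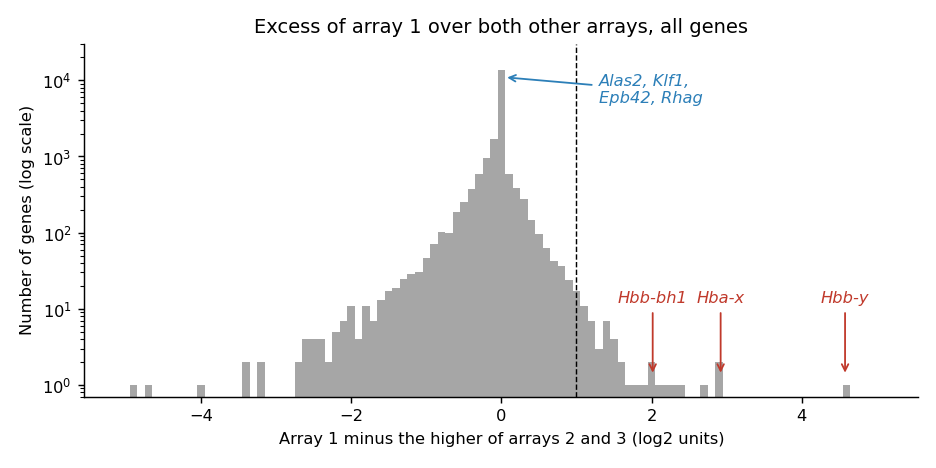
Number of genes (vertical axis, log scale) by the excess of array 1 over the higher of arrays 2 and 3 in log2 units (horizontal axis, bins of equal width), for 19938 genes. Arrows mark the 3 globins at 2.02, 2.92 and 4.58, the 4 tied genes lie in the bar at 0, and the dashed line at 1 has 58 genes to its right.

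The genes whose pattern was most like that of the globins, by the excess of array 1 over the higher of arrays 2 and 3, were Crabp1, Rian, Ccdc180, Olfr926, Guk1, Mir695, Zmiz1, 1700028P14Rik, Ndfip2 and Gm4787. Crabp1, a retinoic acid-binding protein, had an excess of 2.91, nearest to that of Hba-x, and a gap of only 0.06 between arrays 2 and 3. Rian, a maternally expressed noncoding RNA of an imprinted cluster, read 7.64 on array 1 against 4.92 and 4.47, an excess of 2.72. Olfr926, an olfactory receptor gene and a member of the background set, had an excess of 2.31, larger than that of Hbb-bh1. The remaining 7 ranged from 1.67 for Gm4787 to 2.36 for Ccdc180. For Ccdc180 this came from 1 of 27 probe sets, for Zmiz1 from 1 of 3 and for Ndfip2 from 1 of 2. None of the 10 is a red cell gene of the lists used here, and over 3 arrays a shared pattern means only that array 1 was highest.

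Other globins were read to see how far the array 1 excess extended through the family. Adult alpha globin, the chain that replaces zeta globin, is covered by 2 probe sets that the annotation gives to both adult alpha genes together. The first gave 8.22 on array 1, with 6.14 and 6.25 on the others, and the second gave 8.05, with 5.998 and 6.13. Their excesses over the mean of arrays 2 and 3 were 2.03 and 1.98 log2 units, with gaps between those arrays of 0.11 and 0.13. On arrays 2 and 3 both probe sets lay above the cutoff, by 0.27 to 0.54. Of 1621 probe sets with several genes, 5 (0.308%) had an excess of array 1 of more than 1 log2 unit, and 2 of the 5 were these.

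Adult beta globin, which replaces the embryonic beta-type chains, is covered by 2 probe sets given to 4 genes each. One read 5.68 on array 1 and 5.35 on both other arrays, and the other 5.60 against 5.04 and 5.12. Their excesses over the mean of arrays 2 and 3 were 0.34 and 0.51, and array 1 minus its cutoff was -0.01 and -0.10. Both adult beta probe sets thus lay below the cutoff on every array, while both adult alpha probe sets lay above it on every array. Globin genes of a family are alike in sequence, so how far each probe set reads its own gene was not tested.

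Among globin genes with a probe set of their own that are not in the 7, 4 of 6 lay above background, against 56.1% of all genes (11194 of 19938; limma, one-sided, Benjamini-Hochberg adjusted p under 0.05). A stricter cutoff, set at the 99th percentile of the receptors, left 0 of them, and the fit without array 3 left 2. Hbq1b, a theta-type gene of the alpha locus, read 6.48 on every array and passed. Hbq1a, another theta-type gene, read 5.21 on array 1 against 4.59 and 4.82 and did not pass, although array 1 was again highest. Hbb-bh2, a beta-type gene beside Hbb-bh1, read 5.57 on every array and did not pass. The globins of other tissues lay close to the cutoff and passed: Mb, the oxygen store of muscle, at 5.998 ± 0.06, Cygb at 5.90 ± 0.04 (SD, n = 3) and Ngb at 5.90 on every array.

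**Figure D3:**
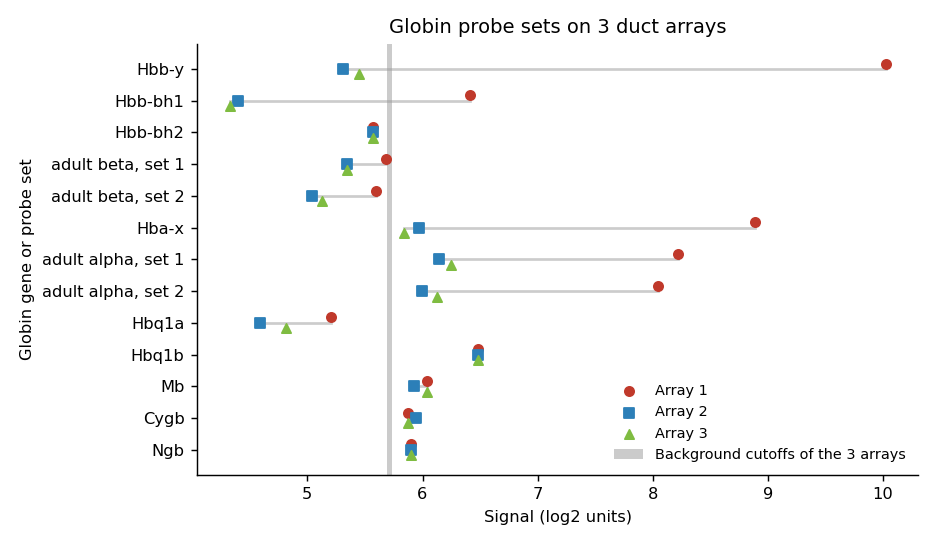
Log2 signal (horizontal axis) of 13 globin probe sets on arrays 1, 2 and 3 (red circles, blue squares and green triangles), with the lowest and highest value of each joined by a line and the background cutoffs as a grey band. Array 1 stands far to the right for Hbb-y, Hbb-bh1, Hba-x and both probe sets shared by the adult alpha genes. It is also highest, by less, for both adult beta probe sets and Hbq1a. Its excess over the higher of arrays 2 and 3 is 0.34 and 0.47 for the former and 0.39 for Hbq1a. Hbb-bh2, Hbq1b, Mb, Cygb and Ngb show little or no spread.

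The measured genes on either side of the globin loci had no array 1 excess near that of the embryonic globins. In RefSeq order (GRCm38.p6), the beta locus runs from Hbb-bt through Hbb-bs, Hbb-bh2 and Hbb-bh1 to Hbb-y and is flanked by olfactory receptor genes. The 6 nearest measured ones, 3 on each side, read 2.94 to 4.47 on array 1, and array 1 minus the mean of arrays 2 and 3 was between -0.14 and 0.00. The alpha locus is flanked by Nprl3, whose introns hold the alpha-globin enhancers, and by Mpg and Rhbdf1, all tied on the 3 arrays at 5.81, 6.10 and 6.25. On its other side Sh3pxd2b, Ubtd2 and Efcab9 differed by -0.06, 0.16 and -0.07. The olfactory receptor genes belong to the background set and read under the array 1 cutoff of 5.70. Such readings, and the ties, cannot show how far the excess extended.

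The 6 red cell lists, of which the other globins are 1, held 95 measured genes, and 0 of them had an excess of array 1 of more than 1 log2 unit, against 0.291% of all genes. The adult alpha globin genes are on these lists but not among the 95, because they share their probe sets. On these lists 63 of 95 genes lay above background (66.3%, against 56.1% of all genes), and 42 were tied on all arrays (44.2%, against 50.8%). The count depended on the cutoff: 81 passed one at the 90th percentile of the receptors. The stricter cutoff left 35, and one placed 1 log2 unit higher than the first left 31. The p of a tied gene is too small, because its fitted spread comes only from the cutoffs and from moderation. Many of these genes also serve cells other than red cells, the duct included. The median of array 1 minus the mean of arrays 2 and 3 was 0.00 for each of the 6 lists and for all genes. With so many tied genes, such a median cannot show whether a list leaned to 1 side. Array 1 was highest for 19 of the 95 genes and lowest for 5. Among all 19938 genes it was highest for 2166 and lowest for 1928. Whether the lists leaned to array 1 was not tested.

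Heme and iron genes passed in 17 of 22 cases, and 11 passed the stricter cutoff. The ferritin genes led: Fth1, the heavy chain, read 12.58 ± 0.02, and Ftl1, the light chain, 10.68, 9.34 and 10.14 in array order. Tfr2, a transferrin receptor of liver and red cell precursors, read 4.97 on every array and did not pass. Tfrc, Fech and Alas1 were named after their values were seen. Tfrc, which takes up transferrin iron, read 8.17 on array 1 against 9.70 and 9.16, so array 1 was its lowest. Array 1 was lowest for 2 of the 22 genes, Tfrc included, and highest for 6. Among all 19938 genes it was lowest for 1928 and highest for 2166. Fech, which inserts iron into the porphyrin in the last step of heme synthesis, read 5.70 on every array and did not pass. Nor did Alas1, the form of Alas2 used outside red cells, at 5.59 ± 0.06 (SD, n = 3). Both Fech and Alas1 passed a looser cutoff at the 90th percentile of the receptors.

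Factors of the erythroid programme passed in 15 of 18 cases, and 6 passed the stricter cutoff. The highest were Ldb1, which bridges Gata1 complexes at globin enhancers, at 8.74 ± 0.13, and Klf3, a repressor related to Klf1, at 8.21 ± 0.01 (SD, n = 3). Zbtb7a, a repressor of fetal-type globins, was lowest at 5.05 ± 0.15 and did not pass. Named after their values were seen, Gata1 read 6.03, 6.03 and 6.12 on arrays 1, 2 and 3 and failed the stricter cutoff. Its deposited value was the same on arrays 1 and 2, so a difference between them was not recorded. Lmo2, which Gata1 complexes share with endothelium, read 8.49 on array 1 against 7.72 and 7.86.

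Membrane and surface genes passed in 12 of 21 cases, and 8 passed the stricter cutoff. Cd24a, a surface protein also of epithelia, read 12.67 ± 0.03 and Cd47, a widely expressed signal against phagocytosis, 9.79 ± 0.22 (SD, n = 3). Kel, a blood group protein of red cells, was lowest at 4.26 on every array and did not pass. Named after their values were seen, Slc4a1, the anion exchanger to which protein 4.2 binds, read 5.89 on every array and passed, but not under the stricter cutoff. Slc2a1, the glucose transporter of red cells and many epithelia, read 10.22 on array 1 against 8.68 and 9.38, a difference from their mean of 1.19.

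Genes of erythropoietin receptor signalling passed in 8 of 11 cases, and 4 passed the stricter cutoff. Kitl, or stem cell factor, the ligand of Kit, read 8.84 ± 0.15 (SD, n = 3), Jak2, the kinase bound to the receptor, 8.83 on every array, and Cish, a feedback inhibitor, was lowest at 5.37 ± 0.04 and did not pass. Enzymes and other proteins abundant in maturing red cells passed in 7 of 17 cases (41.2%), and 6 passed the stricter cutoff. Prdx2, a peroxidase, read 12.30 ± 0.14 and Hk1, the first enzyme of glycolysis, 12.10 ± 0.18 (SD, n = 3). Cldn13, a claudin of mouse erythroid tissue, was lowest at 4.55 on every array and did not pass. Across the measured genes of these lists the largest differences of array 1 from the mean of the others were -1.26 for Tfrc and 1.19 for Slc2a1. Both were smaller than that of any of the 3 embryonic globins. The shared adult alpha probe sets, not counted in the lists, differed by 2.03 and 1.98, close to Hbb-bh1 at 2.05.

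**Figure D4:**
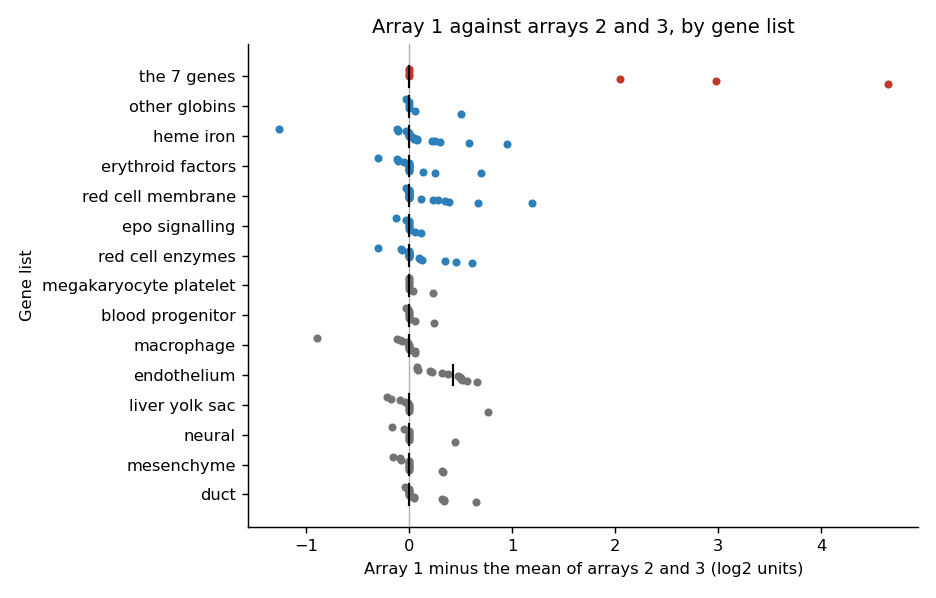
Array 1 minus the mean of arrays 2 and 3 in log2 units (horizontal axis) for every measured gene of each list (rows), with the 7 genes in red, the 6 other red cell lists in blue and markers of further cell types in grey, and black bars at the list medians. The 3 embryonic globins lie at 2.05 to 4.65, and the red cell lists lie between -1.26 and 1.19. Probe sets shared by several genes, those of adult alpha globin included, are not shown.

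Markers of the cells that a sort of duct tissue could also hold were read on the same arrays. Duct genes passed in 16 of 16 cases, with Calb1 at 11.71 ± 0.03, Krt8 at 10.56 ± 0.37 (SD, n = 3) and Wnt9b lowest at 6.96 on every array, and none exceeded the other arrays by 1 log2 unit on array 1. Endothelial genes passed in 13 of 14 cases, but their list means were 7.97, 7.25 and 7.97 on arrays 1, 2 and 3, so array 3 was as high as array 1. Emcn at 10.40, 9.28 and 10.53 and Cdh5 at 9.31, 8.44 and 9.54 led that list, and Sox17 was lowest at 5.80 ± 0.05. The endothelial pattern thus differed from that of the globins, which were low on array 3.

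Of the megakaryocyte and platelet genes 5 of 8 passed, and 1 under the stricter cutoff, with list means of 5.86, 5.79 and 5.86 on arrays 1, 2 and 3. Clec1b, the platelet receptor for podoplanin, read 7.17, 6.70 and 7.17, Nbeal2 6.36 on every array, and the platelet chemokine gene Ppbp 4.23 on every array. Blood progenitor genes passed in 3 of 10 cases, and in 2 under the stricter cutoff, with means of 5.96, 5.90 and 5.96. Cd34 and Hhex, both also of endothelium, read 8.78 ± 0.29 and 8.35 ± 0.07 (SD, n = 3), and Ptprc, the common surface antigen of white cells, 4.16 on every array. The macrophage list had means of 5.09, 5.18 and 5.15. In it 1 of 14 genes passed, Cx3cr1 at 6.54 on every array, and 2 did without array 1 or without array 3. Cd68 read 5.71 on array 1 and 6.60 on both others, and Adgre1 4.09 on every array.

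Liver and yolk sac genes passed in 2 of 11 cases, in 3 without array 1 or without array 3, and in 0 under the stricter cutoff, with means of 5.36, 5.34 and 5.34. Apoa1 read 6.34 on every array, Trf, the iron carrier of plasma, 6.83 on array 1 and 6.07 on both others, and Alb was lowest at 4.74 ± 0.23 (SD, n = 3). Neural genes passed in 3 of 10 cases, and in 2 under the stricter cutoff, with Ncam1 at 7.06 ± 0.26, Erbb3 at 6.96 and Elavl4 at 4.13. Mesenchymal genes passed in 5 of 13, and in 2 under the stricter cutoff or without array 3, with Foxc2 at 7.84 ± 0.19, Col1a1 at 6.75 and Lum at 3.23. In none of these lists did a gene exceed both other arrays by more than 1 log2 unit on array 1. The part of any of these cell types in the globin signals was not tested.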

How the data were processed

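Values were the log2 signals that the authors deposited, 1 per probe set and array, for 35557 probe sets on 3 arrays. The submitters' processing notes name Affymetrix Expression Console; which algorithm and version it ran, and with which filters, is not given in the sources used here. No scanner file was used. The values run from 1.90 to 14.2, with array medians of 5.85 to 5.90, which is why they were read as log2. The platform annotation gave 1 symbol to 21789 probe sets (19938 genes, each by its probe set with the highest mean), several to 1621 and none to 12147. By Entrez number 21698 of the first matched RefSeq, and 0 symbols changed.

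The 7 genes were set out per array with no test. Other genes were tested above the cutoff with limma 3.58.1 (R 4.3.3), an intercept fit with a one-sided p adjusted by Benjamini-Hochberg over 21789 probe sets and a threshold of 0.05. The code was checked on simulated data. The number of arrays limits the precision. Genes named by rule were the 7, other globins and the 2 highest and 1 lowest of each other list. So were list genes more than 1 log2 unit higher on array 1 than on both others, and the 10 genes most like the 7. Genes beside the globin loci were named by position. The genes marked as named after their values were seen fall outside this rule. The genes and lists were chosen with earlier results of these data known. Members of a list that share a probe set with other genes, or have none, were left out of the list counts. The shared adult globin probe sets were described apart from the lists. Alternatives covered the baseline, distance, scaling, probe set, cutoff and arrays.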

Additional observations from a re-analysis of the deposited data

How the results depend on the processing

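The count of 3 of 7 genes higher on array 1 was the same under every alternative run: another baseline, a distance of 0.5 or 2 log2 units, median centring, quantile normalization, other probe set rules, and without array 2 or array 3. Over these, the array 1 difference ranged from 4.58 to 4.72 for Hbb-y, 2.92 to 3.04 for Hba-x and 2.02 to 2.08 for Hbb-bh1. For the 4 tied genes it reached at most 0.08, under rescaling, and no difference reversed. Each of the 7 genes has 1 probe set, so the probe set rules could not change its value. The genes were chosen on the contrast of array 1 with the others, so the unchanged count is no support for it. The count of all genes higher on array 1, 58, was 102 with the mean of arrays 2 and 3 as baseline, 272 at a distance of 0.5, 9 at 2, and 134 to 220 with an array left out. Genes above background numbered 13052 at the 90th percentile, 7193 at the 99th percentile and 5647 for a cutoff 1 log2 unit higher. The main setting gave 11194, and leaving out an array gave 10354 to 11002. For the 95 red cell genes these counts were, in the same order, 81, 35, 31, 63 and 59 to 64. Without array 3, limma fitted 1 spread for all genes. Signal over background is the limit: calls near the cutoff depend on its height. No paired analysis was possible because the series has 1 group. Leaving out array 1 gives no value for a difference from it.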
